A study of Caenorhabditis elegans with 2 samples.

Results

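The 67 protein-coding genes for translation factors and aminoacyl-tRNA synthetases were examined for binding of the homeodomain transcription factor CEH-28 in the worm Caenorhabditis elegans. They were chosen from 19973 protein-coding genes of the nuclear chromosomes by symbol alone, as symbols that start with eif-, eef- or ife-, or that consist of 1 letter followed by ars-1 or ars-2. ChIP-seq against eGFP-tagged CEH-28 had been carried out in whole larvae of mixed sex at the last larval stage (L4), with 2 biological replicates in 1 group. Both replicates were of strain OP241, with the genotype unc-119(ed3) III; wgIs241, in which the tagged gene is carried by the inserted transgene. The labels name no promoter and no copy number for it, no age in hours, and no untagged or untreated group. Whole animals were used, so a site used in few cells cannot be told apart from a weak site used in many.

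Translation starts when initiation factors bring the small ribosomal subunit, the initiator tRNA and the capped end of an mRNA together. Elongation factors then deliver charged tRNAs and move the ribosome along the message. The synthetases charge each tRNA with its amino acid, in the cytosol and, by separate genes or gene forms, in mitochondria. These are genes that nearly every growing cell uses, while CEH-28 itself is best known from a single pharyngeal neuron, M4.

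Binding was read from lists of summits, the points of highest signal within a region. The thresholded list holds 1739 summits that passed the irreproducible discovery rate, and they are the 1739 highest of the 20803 summits of the pooled replicates. The lists of the single replicates hold 23410 and 26414 summits. The signal is the authors' value, on a scale that is not stated, so ranks within a list (1 for the highest) are given beside it. No read counts are in the lists, so the depth is unknown and no value of signal carries a depth-based interval. A gene counted as bound in a list where a summit lay from 1000 bp upstream to 500 bp downstream of its start, called the promoter window.

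Thresholded summits lay in the promoter windows of 6 of the 67 genes, namely eef-1A.2, fars-2, lars-1, eif-3.H, aars-1 and eif-3.B. This was 8.96% (exact 95% binomial interval 3.36 to 18.5, which covers counting error only and takes genes as independent), where 3.85% of all protein-coding genes had such a summit. Other genes of the same chromosomes, weighted by where the 67 lie, had one in 4.71% of cases, a share inside that interval, and the ratio of both shares was 1.90. One more tier of the pooled list, up to rank 3478, which is 2 times the thresholded count, brought the number to 18 of 67, or 26.9% (exact binomial interval 16.8 to 39.1), where 8.41% of all protein-coding genes and 9.68% of other genes of the same chromosomes were counted. The interval of the 18 genes lay above the share of the other genes, and that of the 6 did not. This is a description and no test, since genes and lists were chosen with earlier results of these data known. Summits that also lay in the window of a neighbouring gene were kept in these shares. This was so at 2 of the 6 genes and at 8 of the 12 added. For the 18 genes, the share among genes without a close second start was not computed.

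The sequences around the summits are shown for 5 of the 6 genes and for 2 genes of the next tier, eef-1A.1 and ife-4, to let the binding sites be compared by eye. Each is the reference sequence from 100 bp before to 100 bp after the summit, 201 bases on the strand of the gene, on ce11, and none of the 7 touches an exon of a protein-coding gene. Capitals mark the letters ATCGAT, a run known from an earlier look at the summits of this experiment, and AGAGAG or its complement CTCTCT, a run chosen after these values were seen. The stretch of eef-1A.2 is chrX:7823107-7823307 on the plus strand, that of fars-2 is chrV:19907462-19907662 on the minus strand, and that of lars-1 is chrIII:4186810-4187010 on the minus strand. Those of aars-1 and eif-3.B are chrII:11464627-11464827 on the minus strand and chrII:14794951-14795151 on the plus strand. Those of eef-1A.1 and ife-4 are chrIII:6971984-6972184 on the minus strand and chrX:1103793-1103993 on the plus strand.
eef-1A.2: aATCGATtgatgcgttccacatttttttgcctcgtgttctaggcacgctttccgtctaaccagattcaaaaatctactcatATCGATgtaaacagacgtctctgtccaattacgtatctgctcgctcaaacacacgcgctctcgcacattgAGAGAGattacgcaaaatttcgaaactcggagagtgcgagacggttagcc
fars-2: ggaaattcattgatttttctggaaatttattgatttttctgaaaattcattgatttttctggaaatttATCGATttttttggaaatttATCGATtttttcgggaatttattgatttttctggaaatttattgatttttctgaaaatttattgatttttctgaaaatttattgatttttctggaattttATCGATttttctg
lars-1: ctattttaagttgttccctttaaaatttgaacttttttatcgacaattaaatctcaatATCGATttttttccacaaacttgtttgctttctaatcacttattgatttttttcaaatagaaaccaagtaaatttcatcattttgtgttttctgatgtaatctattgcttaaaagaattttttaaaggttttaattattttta
aars-1: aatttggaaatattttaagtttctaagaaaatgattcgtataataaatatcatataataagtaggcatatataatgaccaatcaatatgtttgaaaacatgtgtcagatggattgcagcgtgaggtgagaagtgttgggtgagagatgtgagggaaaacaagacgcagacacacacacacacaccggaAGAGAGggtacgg
eif-3.B: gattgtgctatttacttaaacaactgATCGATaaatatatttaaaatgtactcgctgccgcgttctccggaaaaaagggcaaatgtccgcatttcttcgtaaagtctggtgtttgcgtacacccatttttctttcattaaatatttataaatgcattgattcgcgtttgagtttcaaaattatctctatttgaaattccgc
eef-1A.1: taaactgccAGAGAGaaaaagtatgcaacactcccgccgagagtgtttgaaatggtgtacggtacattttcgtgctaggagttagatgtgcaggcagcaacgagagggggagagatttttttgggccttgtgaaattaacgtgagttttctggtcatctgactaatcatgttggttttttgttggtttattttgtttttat
ife-4: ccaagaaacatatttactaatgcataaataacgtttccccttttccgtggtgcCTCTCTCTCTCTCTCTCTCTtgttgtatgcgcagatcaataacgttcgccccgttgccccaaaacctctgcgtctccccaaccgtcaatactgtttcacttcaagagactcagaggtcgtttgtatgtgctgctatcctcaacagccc

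The stretches differ in what they hold. At eef-1A.2 there are 2 ATCGAT sites and 1 AGAGAG, at lars-1 and eif-3.B 1 ATCGAT each, and at aars-1 no ATCGAT but 1 AGAGAG. The stretch of fars-2 is a tandem repeat. Shifted by 20 bases it matched itself at 90.6% of positions, and 3 of its repeats read ATCGAT. In the other 5 thresholded stretches the best match at any shift from 5 to 60 bases was 34.1 to 44.5%, and the median over the 660 thresholded summits in promoter windows was 36.2%. Of those 660 summits, 7 (1.06%) matched themselves at 80% or more. At ife-4 the capitals come from a run of CTCTCT with 8 overlapping matches, and eef-1A.1 has 1 AGAGAG and no ATCGAT.

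The elongation factor gene eef-1A.2 had the highest summit of all 67. It encodes eEF1A, the factor that brings charged tRNAs to the ribosome. Its pooled signal was 230, rank 220 of the pooled list, and the signals were 170 in replicate 1 (rank 226) and 60.2 in replicate 2 (rank 242). The region, chromosome X from 7823029 to 7823357, lay between genes, with the summit 447 bp upstream of the start, and no other gene start was nearer. The ranks of this summit were thus alike in both replicates, although the signals differed by a factor of 2.82.

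The second gene for the same protein, eef-1A.1, fell just below the threshold. Its highest pooled summit had a signal of 54.5 at rank 1834, where the lowest thresholded signal was 56.5. The signals were 35.2 in replicate 1 (rank 2313) and 21.8 in replicate 2 (rank 1178), so it was among the 1739 highest summits of replicate 2 and not of replicate 1. This summit lay at -372 bp relative to the start of eef-1A.1 but only 169 bp from the start of rfc-4 on the opposite strand, and within the annotated miRNA gene cel-mir-5549. It can therefore not be assigned to eef-1A.1 by position. Of the remaining elongation factor genes, eef-1G, for a subunit of the exchange factor of eEF1A, had a pooled signal of 35.1 at rank 3617, and eef-2, for the factor that moves the ribosome along, had 26.0 at rank 5988. The highest signals in the window of eef-1G were 25.9 and 20.7 in replicates 1 and 2, at ranks 3693 and 1291. Those of eef-2 were 22.6 and 13.2. At eef-1G the pooled summit lay at 249 bp, that of replicate 1 at 245 bp and that of replicate 2 at 45 bp. At eef-2 they lay at -20, 218 and -6 bp, so the replicate signals of each gene come from summits apart. For eef-1B.1 the pooled signal was 19.9, and eef-1B.2 had no pooled summit in its window.

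**Figure D1:**
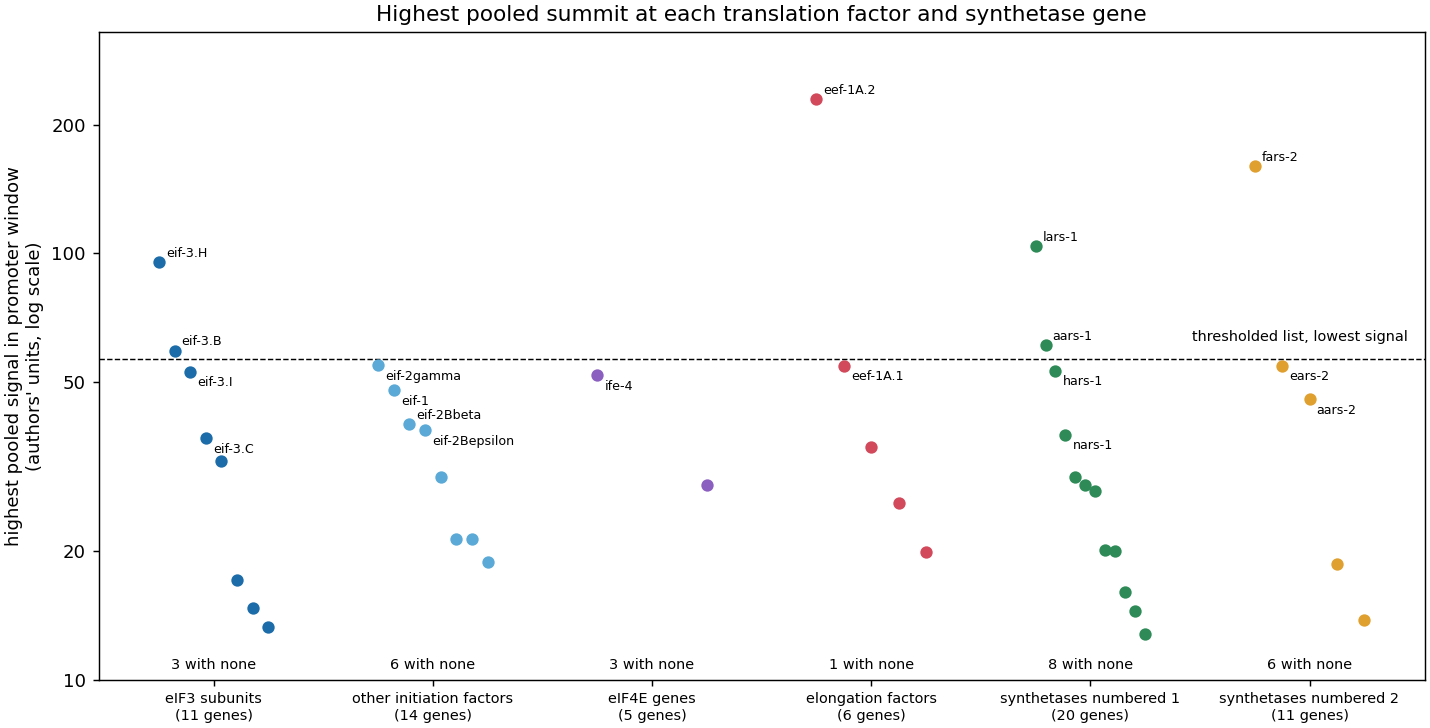
Each point is 1 gene and gives the highest signal of the pooled list in its promoter window (authors' units, log scale), by class; genes with no pooled summit are counted at the bottom. The 6 points above the dashed line, from 59.1 to 230, are the genes with a thresholded summit, and 12 more lie between 36.8 and 54.7.

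Among the initiation factor genes chosen by symbol, thresholded summits were found at subunit genes of eIF3. This large complex holds the small ribosomal subunit ready for the mRNA. The limit to eIF3 holds for the symbol rule alone. Of the 31 other translation genes described below, 10 had a thresholded summit. They include ifg-1 for eIF4G, with a pooled signal of 80.1, and drr-2, a homologue of eIF4H, with 172. Of the 11 eIF3 genes here, 2 had a thresholded summit, 4 had a pooled summit up to rank 3478 and 8 had any pooled summit. The shares over all protein-coding genes were 3.85, 8.41 and 34.1%. With 11 genes these counts are a description. At eif-3.H the pooled signal was 95.3 (rank 795), with 65.9 in replicate 1 (rank 892) and 33.4 in replicate 2 (rank 600). Its summit lay 116 bp upstream of the start, with the start of C41D11.3 at -370 bp on the opposite strand, and held neither ATCGAT nor AGAGAG within 100 bp. At eif-3.B the pooled signal was 59.1 (rank 1623), with 45.2 in replicate 1 (rank 1586) and 12.3 in replicate 2 (rank 3601), and the summit lay 353 bp upstream. The eif-3.B summit was thus high in replicate 1 alone. The subunit genes eif-3.I and eif-3.C had pooled signals of 52.7 (rank 1939) and 36.8 (rank 3337). In replicate 1 these were 30.2 and 33.3 and in replicate 2 they were 25.7 and 11. The pooled eif-3.I summit, at -402 bp, lay 68 bp from the start of abtm-1. The replicate 2 summit of 25.7 lay 177 bp from that pooled summit, at -225 bp. Near it was a second pooled summit of eif-3.I, at -203 bp, with a signal of 33.3 (rank 3945). The highest at eif-3.J was 32.5. No summit of any list lay in the windows of eif-3.D and eif-3.L.

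The 14 other initiation factor genes chosen by symbol had 0 thresholded summits. Up to rank 3478 a pooled summit was present at 4 of them, and 8 had any pooled summit. Beside shares of 3.85, 8.41 and 34.1% over all protein-coding genes, 0 thresholded of 14 does not set them apart. The highest summit belonged to eif-2gamma, which encodes the GTP-binding subunit of eIF2, the carrier of the initiator tRNA. Its summit lay 4 bp downstream of the gene start, in the annotated 5' UTR, with a pooled signal of 54.7 at rank 1821. In replicate 1 the signal was 43.5 (rank 1690), with its summit at 151 bp. In replicate 2 it was 19.8 (rank 1399), with its summit at -4 bp. The gene was thus among the 1739 highest of each replicate, by summits that lay apart, but not in the thresholded list. A second, lower pooled summit of this gene, 206 bp downstream in an intron, overlapped the same region of replicate 1. The replicate 1 summit lay 55 bp from this second summit and 147 bp from the first. At the second summit replicate 2 had a signal of 6.40 (rank 15647).

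The start-codon selection factor gene eif-1 had 47.7 (rank 2234), with 35.4 in replicate 1 and 12.7 in replicate 2, but that summit lay 45 bp from the start of vps-24. The genes for 2 subunits of eIF2B, which recharges eIF2 with GTP, followed with 39.7 at eif-2Bbeta and 38.5 at eif-2Bepsilon. At eif-2Bbeta the signal was 34.7 in replicate 1, no region of replicate 2 overlapped, and the summit lay in a coding exon of Y47H9C.8. At eif-2Bepsilon the signals were 25.3 in replicate 1 and 13.9 in replicate 2, 66 bp upstream of the start. The exon junction factor gene eif-4A3 had a pooled signal of 29.9. The subunit genes eif-2beta, eif-2Balpha and eif-2Bdelta, as well as eif-2D, had no summit in any of the lists.

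The 5 genes for eIF4E, the protein that binds the mRNA cap, had 0 thresholded summits. With a share of 3.85% over all protein-coding genes, 0 of 5 does not set them apart. At ife-4 the pooled signal was 51.8 (rank 1984), with 37.3 in replicate 1 (rank 2102) and 11.7 in replicate 2 (rank 4076), 319 bp upstream with no other gene start nearer. At ife-2 the pooled signal was 28.7. For ife-1, ife-3 and ife-5 no pooled summit lay in the window, and their replicate summits had signals of at most 9.47.

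Of the 20 synthetase genes numbered 1, 2 had a thresholded summit. Up to rank 3478 a pooled summit was present at 4, and 12 had any pooled summit. Shares over all protein-coding genes were 3.85, 8.41 and 34.1%, and with 20 genes these counts are a description. The leucyl-tRNA synthetase gene lars-1 had a pooled signal of 104 (rank 707), with 67.1 in replicate 1 (rank 873) and 35.3 in replicate 2 (rank 546). Its summit was at the same base in all lists, 109 bp upstream of the start, in the region on chromosome III from 4186840 to 4186991. The alanyl-tRNA synthetase gene aars-1 had 60.8 (rank 1553), with 33.1 in replicate 1 (rank 2530) and 23.7 in replicate 2 (rank 1019). In contrast to eif-3.B, aars-1 was high in replicate 2 alone, and its summit, at -230 bp, was nearer to the start of rga-1 (167 bp), which lies on the opposite strand.

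The histidyl-tRNA synthetase gene hars-1 stood high in replicate 1 alone. Its highest summit in the window, 69 bp downstream of the start in a coding exon, had a pooled signal of 53.1 (rank 1904), 48.8 in replicate 1 (rank 1396) and 7.66 in replicate 2 (rank 10751), a ratio of 6.37. The replicate 1 summit lay at 84 bp and the replicate 2 summit at -75 bp, so the ratio is not taken at a single position. Among the highest summits of the 17 of these 18 genes that had a signal in both replicates, this ratio was the largest. The same gene had a thresholded summit outside the window, 2118 bp downstream of its start in an exon, with a pooled signal of 64.8 and replicate signals of 50.6 and 26.8. The asparaginyl-tRNA synthetase gene nars-1 had 37.5 (rank 3250), with 24.1 and 11.8 in the replicates, 38 bp from the start of nduf-6. Next came fars-1 at 29.9 and mars-1 at 28.7. For gars-1, iars-1, qars-1, sars-1, wars-1 and yars-1 no list held a summit in the window.

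The numbers do not say in which compartment an enzyme works. Of the 11 synthetase genes numbered 2, 1 had a thresholded summit, 3 had one up to rank 3478 and 5 had any pooled summit. Here too these counts are a description, beside 3.85, 8.41 and 34.1% of all protein-coding genes. The phenylalanyl-tRNA synthetase gene fars-2 had a pooled signal of 160 (rank 387), with 119 in replicate 1 (rank 396) and 50.6 in replicate 2 (rank 311). This summit, in the tandem repeat printed above, lay 128 bp upstream of the start (chromosome V, 19907406 to 19907655). The gene also held 3 thresholded summits in its introns, 1231, 2404 and 5388 bp downstream of the start, with signals of 152, 182 and 165. Their replicate 1 signals were 110, 135 and 116, and their replicate 2 signals were 40.1, 49.0 and 50.4. All 3 again matched themselves best at a shift of 20 bases, at 76.8, 63.0 and 81.8% of positions, and all held ATCGAT. How uniquely reads could be placed in such repeats was not tested.

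The glutamyl-tRNA synthetase gene ears-2 had a pooled signal of 54.5 (rank 1832), with 27.2 in replicate 1 (rank 3428) and 20.2 in replicate 2 (rank 1350), 45 bp upstream of its start. The start of uncp-18 lay at -92 bp on the opposite strand. The second alanyl-tRNA synthetase gene, aars-2, had 45.5 (rank 2399), with 35.1 in replicate 1 and 9.33 in replicate 2, and its summit lay 218 bp upstream with no other start nearer. In the windows of dars-2, rars-2 and yars-2 there was no summit in any list.

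Further down the pooled list, more of the 67 genes were reached. The count went from 6 at rank 1739 to 14 at rank 2500 (20.9%, beside 7.08% of other genes of the same chromosomes) and 22 at rank 5000 (32.8% beside 13.4%). Any pooled summit was present at 40 of 67, or 59.7%, where 34.1% of all protein-coding genes had one and 36.9% of other genes of the same chromosomes. Among genes with a pooled summit, the median of the highest signal was 31.2 for the 40 genes and 22.2 for 6766 other genes. The 16 genes with a pooled summit that ranked below those named next after the 18 and below ife-2 had signals of 12.8 to 27.7. At 12 genes a summit was found in single replicates but not in the pooled list, with signals of at most 14.2, the highest at lars-2. No list held a summit in the window at 15 of the 67.

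**Figure D2:**
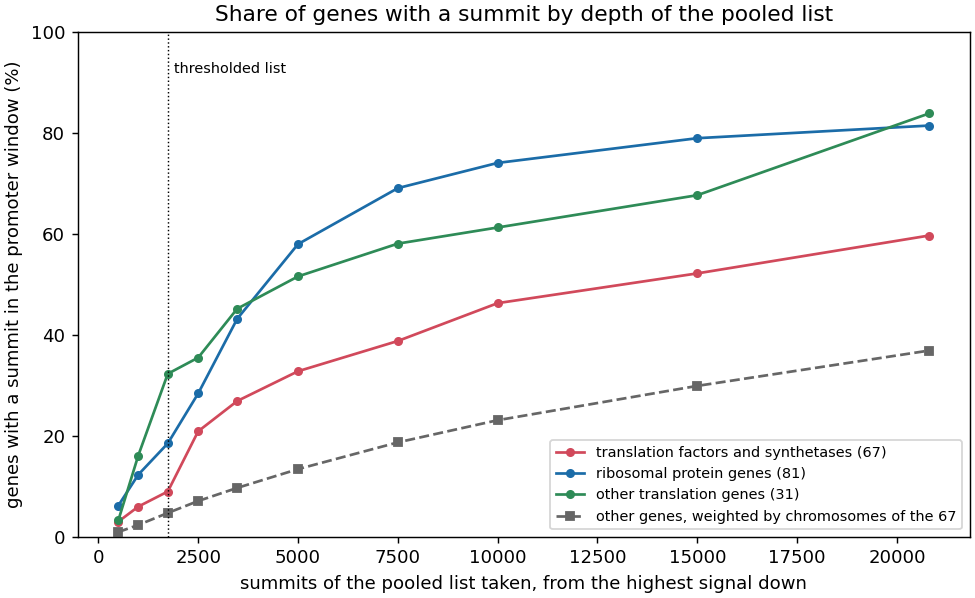
Share of genes with a summit in the promoter window (percent) as more summits of the pooled list are taken, from the highest signal down; the dotted line marks the thresholded list. The 67 genes lie above the other genes at each depth plotted, from 2.99% beside 0.930% at 500 summits to 59.7% beside 36.9% with all. They lie below the ribosomal protein genes and the listed other translation genes, which were listed symbol by symbol and not by a rule.

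Counted within chromosomes, the genes with thresholded summits were spread rather than gathered. Chromosome I had 21 of the 67 genes and 1 with a thresholded summit, where 6.79% of other genes there had one. Chromosome II had 2 of 14 (other genes 2.79%), III had 1 of 11 (7.0%), IV had 0 of 10 (3.33%), V had 1 of 8 (1.48%) and X had 1 of 3 (3.85%). Up to rank 3478, chromosome I had 7 of 21, beside 12.3% of its other genes, and chromosome III had 2 of 11, beside 13.7%. With so few genes a chromosome, these counts are a description.

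Other genes of translation were listed by function, symbol by symbol and not by a rule, and the list includes regulators such as atf-4. Genes and lists were chosen with earlier results of these data known. The share of these genes is thus a description of the list and does not measure an enrichment. Of 34 symbols 31 were matched, and 10 of these had a thresholded summit (32.3%, exact binomial interval 16.7 to 51.4), beside 4.97% of other genes of their chromosomes. The highest was drr-2, a homologue of the eIF4A helper eIF4H, at a pooled signal of 172, with 128 in replicate 1 and 48.6 in replicate 2. The others were the release factor gene erfa-1 (95.6), the ABC protein gene abcf-2 (91.6), the stress transcription factor gene atf-4 (85.5) and ifet-1, for an eIF4E-binding repressor (81.5). The rest were ifg-1 for the scaffold eIF4G (80.1), iff-2 for eIF5A (78.9), the RNA-binding protein gene larp-1 (76.1), the mitochondrial elongation factor gene tufm-1 (59.3) and the cap-binding gene ncbp-1 (57.8). Ribosomal protein genes, by symbol, had a thresholded summit in 15 of 81 cases (18.5%) beside 4.90% of other genes of their chromosomes, and a pooled summit up to rank 3478 in 43.2%. Whether these shares differ from that of the 67 was not tested.

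All 6 thresholded summits in the windows lay upstream of the gene start, between protein-coding genes and within 500 bp. Their distances ran from 109 to 447 bp, with a median position of -179 relative to the start. In the windows of other genes, 79.0% of 815 pairs of gene and thresholded summit lay upstream and 52.8% within 500 bp upstream. For pooled summits up to rank 3478, 16 of 19 pairs at the 67 genes lay upstream and 15 within 500 bp upstream, beside 77.5 and 52.4% of 1787 pairs at other genes.

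**Figure D3:**
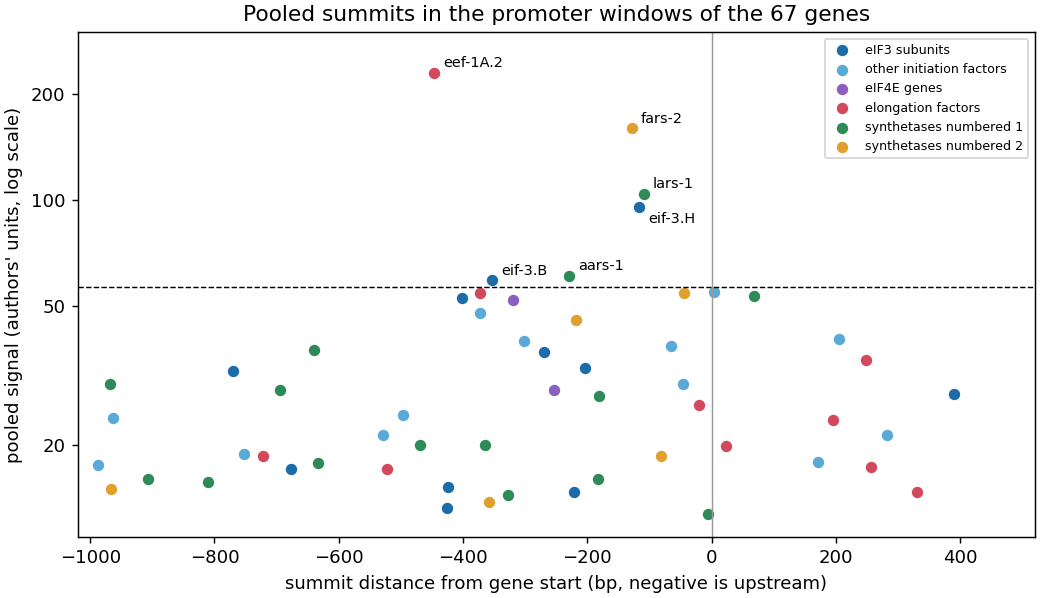
Distance of every pooled summit in the windows of the 67 genes from the gene start (bp, negative upstream) against its signal (authors' units, log scale), coloured by class; the dashed line is the lowest thresholded signal. The 6 named summits above the line lie between 447 and 109 bp upstream, and weaker summits lie across the window.

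Many of the 67 genes had another gene start close by. At 34 of 67 (50.7%) a second protein-coding start lay within 1000 bp (exact binomial interval 38.2 to 63.2), beside 25.8% of other genes of the same chromosomes, and such a start can bring a summit of its own into the window. For 5 of the 6 genes with a thresholded summit the nearest start was their own, aars-1 being the exception. For the next 12 genes it was their own in 7 and that of another gene in 5, which were eef-1A.1, eif-3.I, eif-1, eif-2Bbeta and nars-1. Among genes with no second start within 1000 bp, 4 of 33 of this family had a thresholded summit (12.1%), beside 3.54% of other such genes of the same chromosomes. Those 4 were eef-1A.2, eif-3.B, fars-2 and lars-1.

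The replicates differed in which of the genes they placed among their 1739 highest summits. Replicate 1 had 7 of the 67 genes there, where 3.85% of all protein-coding genes were so placed, and replicate 2 had 10, where the figure was 3.82%. They shared 5 genes, eef-1A.2, eif-2gamma, eif-3.H, fars-2 and lars-1, so 5 of 7 in replicate 1 and 5 of 10 in replicate 2. At eif-2gamma the summits of the replicates lay apart, at 151 and -4 bp. Of other protein-coding genes 507 were placed there by both replicates, or 66.5% of the genes replicate 1 placed there and 67.3% of the genes replicate 2 did. In replicate 1 alone were eif-3.B and hars-1, and in replicate 2 alone aars-1, ears-2, eef-1A.1, eef-1G and eif-3.I. At the 6 thresholded summits the signal in replicate 1 was 1.40 to 3.67 times that in replicate 2, with a median of 2.16, beside a median of 2.77 over 1733 thresholded summits. Across the 37 genes with a summit in both replicates, the highest signals had a Spearman correlation of 0.692 and, on the log10 scale, a Pearson correlation of 0.780, with 0.597 and 0.727 across 4765 other genes. These correlations are across genes, which are not replicates, and both replicates were called with the same control.

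**Figure D4:**
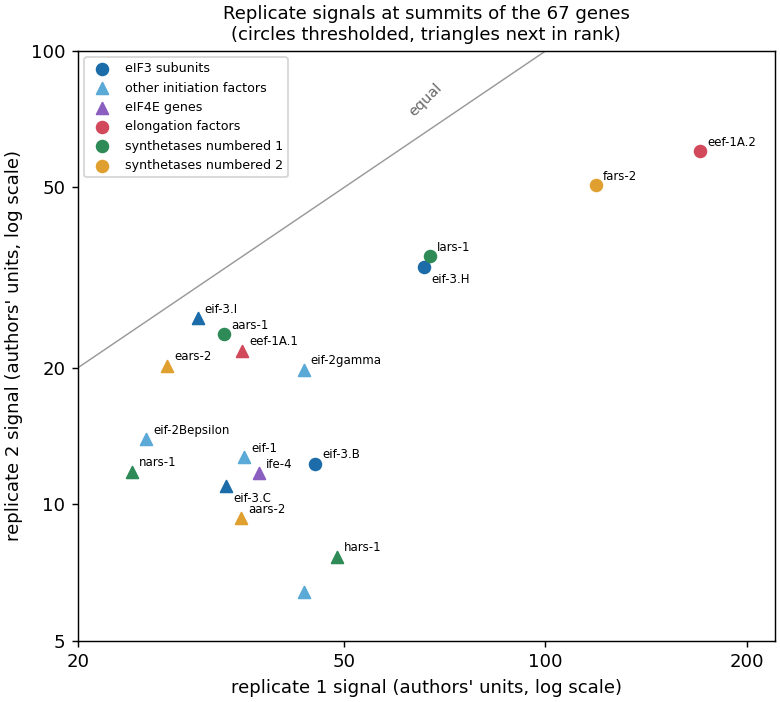
Signal in replicate 1 (horizontal) and replicate 2 (vertical; authors' units, log scales) at the summits of the 67 genes up to pooled rank 3478 that had a region in both replicates; circles are thresholded, triangles are not, and the line marks equal signal. All points lie below the line, eef-1A.2 and fars-2 are highest on both axes, and hars-1, at 48.8 and 7.66, is among the farthest from it. Replicate regions were matched to pooled summits by overlap, so the 2 signals of a point can come from summits some way apart.

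ATCGAT lay within 100 bp of 4 of the 6 thresholded summits (exact binomial interval 22.3 to 95.7%), beside 68.8% of 654 thresholded summits in the windows of other genes. Both strands read the same, since the run is its own complement. Of the 13 further summits up to rank 3478, 5 held it (38.5%, interval 13.9 to 68.4), beside 51.4% of 782 at other genes. With 6 and 13 summits, both intervals include the share at other genes and are too wide to show that the shares are alike. AGAGAG or CTCTCT lay at 2 of the 6 and 4 of all 19 summits, beside 27.7 and 24.8% at other genes. Of all adjoining windows of 201 bp on the chromosomes, 6.5% held ATCGAT and 8.09% AGAGAG or CTCTCT. Both runs were chosen with values of this experiment known, so a higher share at its summits than in these windows is no independent evidence.

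Sites of ATCGAT were also counted over the whole promoter window. At least 1 site lay in the window of 37 of 67 genes (55.2%, exact binomial interval 42.6 to 67.4), beside 43.8% of other genes of the same chromosomes, a share inside the interval. Of the 15 genes with 2 or more sites, 4 had a thresholded summit and 10 had a pooled summit up to rank 3478, which is 66.7% beside 27.6% of 2640 other genes with as many. A counted site need not lie at the summit. Among these 10 genes, eif-3.H, eif-2gamma, ears-2, eef-1A.1 and aars-2 had no site within 100 bp of such a summit. Of the 22 with 1 site, 5 had a summit up to rank 3478 (22.7% beside 11.1%). Of the 30 without a site there were 3, aars-1, ife-4 and eif-3.C (10% beside 2.75%). For thresholded summits the shares at 1 site were 4.55% in both sets. In these classes the other genes were taken from all chromosomes without weighting, and the differences were not tested.

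**Figure D5:**
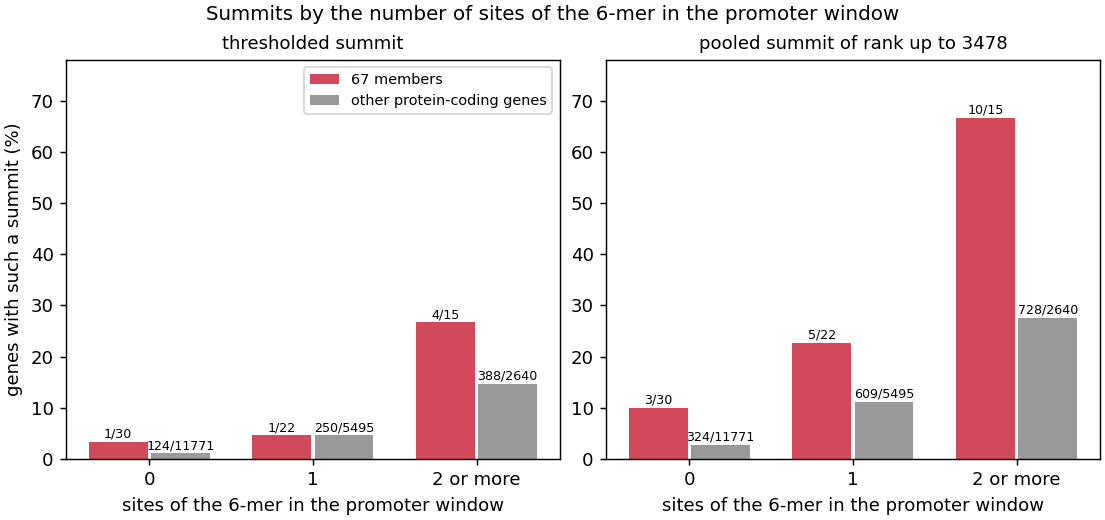
Share of genes (percent) with a thresholded summit (left) and with a pooled summit up to rank 3478 (right), by the number of sites of the 6-mer named in the text in the promoter window; numbers above bars are genes with a summit of all genes in the class. In both panels the share is highest with 2 or more sites, at 26.7 and 66.7% of the 67 genes' class of 15. A counted site need not lie at the summit.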

How the data were processed

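ChIP-seq for eGFP-tagged CEH-28 was analysed from the ce11 lists of 2 replicates of 1 group. The signal of each summit is as deposited, on a scale that is not stated. Per the deposited lineage notes, the authors called peaks for each replicate and for both pooled, each with the same control file, and thresholded the pooled list by the irreproducible discovery rate. Which aligner and caller were used was not given in the sources used here. The 4 ce10 lists were not used, since genes and sequence were on ce11 (WBcel235, Ensembl release 115, with the RefSeq genome sequence).

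The genes and lists were chosen with earlier results of these data known, and AGAGAG, the repeat measure and the depths of the pooled list were added later. Genes were not replicates and no condition was compared, so no test was run. Shares of genes with a summit, a site or a close second start stand beside those of other protein-coding genes, weighted by chromosome. Exact 95% binomial intervals are given for some of these shares. Counts by class stand beside shares over all protein-coding genes. Summit positions, letter runs at summits, replicate values and shares by number of sites stand beside unweighted values. Genes named were those with a thresholded summit, those with a pooled summit up to rank 3478, the next 5 by signal and, of the other translation genes, each with a thresholded summit. Genes without any summit and lower members of small classes were named outside this rule. The assignment of summits to windows was checked on planted positions. Alternatives covered windows, thresholds, gene starts, comparison genes and single replicates. Tables were made in Python 3.11.15 with pandas 2.3.3 and numpy 2.4.6, intervals with scipy 1.17.1, and plots with matplotlib 3.10.9.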

Additional observations from a re-analysis of the deposited data

How the results depend on the processing

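The count of 6 genes with a thresholded summit became 40 with all pooled summits. With single replicates it was 7 to 10, the higher in replicate 2 alone. Under the other alternatives it was 4 to 9, and 9 was reached with the window extended to 2000 bp upstream, which added eif-2alpha, ife-3 and pars-2. The ratio to other genes of the same chromosomes, 1.90 as reported, was above 1 in all 13 alternatives. It ran from 1.18, among genes with any pooled summit (15% beside 12.7%), to 3.42, among genes with no second start nearby, and was 2.25 to 3.26 with 1 replicate left out. Of 8 alternatives applied to single genes, eef-1A.2, eif-3.H, fars-2 and lars-1 had a summit in all 8, eif-3.B in 6 and aars-1 in 5. The share of summits with ATCGAT, 66.7%, was 3 of 6 within 50 bp and 66.7% within 200 bp. With 1 replicate left out it was 30 to 71.4%. The median ratio of the replicates was 2.16 with summits matched within 100 bp too. No paired analysis was possible because both samples belong to the same group. With no read counts and 6 genes, a difference of a few genes decides each share.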
